A study of Mus musculus with 8 samples.

Results

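Proteasome genes were examined in single-cell RNA-seq of mouse embryonic stem (mES) cells. The members were all genes whose symbol begins with Psma, Psmb, Psmc, Psmd, Psme, Psmf or Psmg followed by a digit, with pseudogenes left out, which gave 50 of the 54146 genes in the count tables. Of these, 49 encode subunits, assembly factors or regulators of the proteasome, and Psmc3ip, a partner of meiotic recombinases, meets the rule through its symbol alone. Untreated control mES cells were compared with mES cells treated with CX-5461, an inhibitor of RNA polymerase I and thereby of rRNA synthesis, for which the sample labels give no dose or time. Both cultures were wild-type E14 mES cells in LIF/2i medium on mouse embryonic fibroblast feeders, so each library also held feeder cells that had been through the same treatment. The labels list 4 samples per condition, but the barcodes of a condition stand in 1 table with no sample of origin, and the methods describe a single biological replicate. Each condition was therefore treated as 1 library. No test between conditions could be made, and all intervals below are exact 95% intervals that cover counting error only.

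The proteasome is the protease that degrades proteins tagged with ubiquitin. Its core, the 20S particle, is a barrel of stacked rings, with outer alpha rings, which gate the entry, and inner beta rings, of which the subunits encoded by Psmb5, Psmb6 and Psmb7 carry the active sites. The 19S cap is made of a base, whose ATPases unfold the substrate, and a lid, which removes ubiquitin. In immune and interferon-treated cells the inducible subunits encoded by Psmb8, Psmb9 and Psmb10 replace the constitutive active subunits, and pluripotent cells are known for high proteasome activity.

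There were 3838 control barcodes with 49610287 UMIs (unique molecular identifiers, each marking 1 captured RNA molecule) and 4922 CX-5461 barcodes with 69841836 UMIs. Cells were clustered without the proteasome genes and named from marker genes. The comparison was limited to cells of 5000 UMIs or more whose mitochondrial share did not exceed 0.1: 2328 control and 3910 CX-5461 ES-like cells, and 198 control and 163 CX-5461 feeders, which expressed the fibroblast markers. Levels are UMIs summed over these cells, scaled to a total of 1000000 (CPM), and differences are log2 ratios of CX-5461 over control CPM. The median gene moved as well. Over the 11545 genes with at least 200 UMIs, the median log2 ratio in ES-like cells was 0.36, while ribosomal protein genes took 29.3% of UMIs in control and 24.1% in CX-5461 cells and mitochondrial genes 1.97% and 4.03%. A proteasome gene with a log2 ratio between 0 and 0.36 was thus higher in share of UMIs but lower relative to the median gene. Both scales are given for the members as a whole and for some single genes. Other values are by share of UMIs, to be read against 0.36 in ES-like cells. With 1 library per condition, culture and library preparation cannot be told apart from treatment.

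In ES-like cells, proteasome genes as a group were slightly higher in share of UMIs after CX-5461. They moved unequally between the parts of the complex. By share of UMIs, the beta ring and the summed ATPase genes were higher, and the lid and the alpha ring stood near their control level. Of the 6 ATPase genes, Psmc1 was above the median gene and the other 5 were below it. All 8 lid genes and all 7 alpha ring genes were below the median gene as well. Psmb9 was more than 8-fold higher. The 31 standard genes of the 20S core and the 19S cap took 0.726% (0.723 to 0.728) of UMIs in control and 0.845% (0.843 to 0.848) in CX-5461 cells. Of 50 members, 48 had at least 200 UMIs; Psmb8 and the thymus-restricted Psmb11 did not. A level at least 25% higher (log2 0.32) was found for 14 of the 48, against 52.4% of all genes, and a level at least 20% lower (log2 -0.32) for 6, against 13.9% of all genes. Relative to the median gene the same limits were passed upward by 5 members (31.5% of all genes) and downward by 15 (29.5%). The median log2 ratio of the 48 members was 0.20, or -0.16 relative to the median gene, so the sign of the group as a whole depends on the scale and the differences between members do not.

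**Figure D1:**
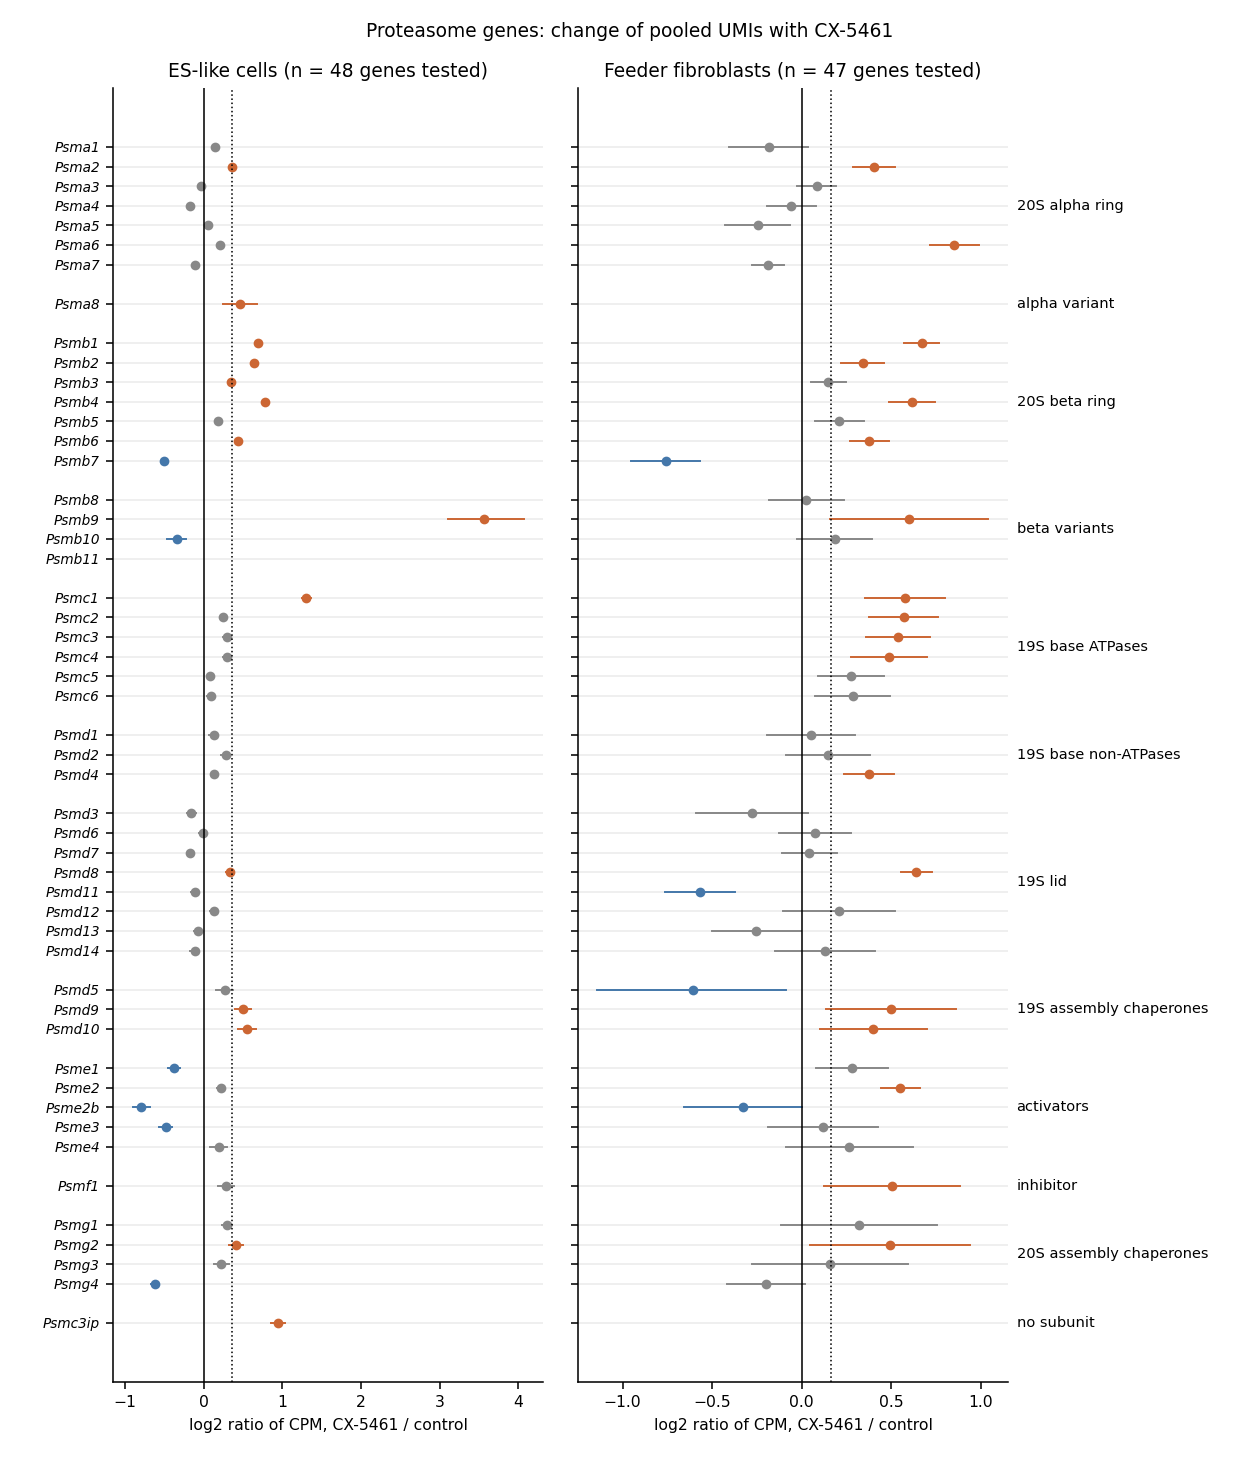
Log2 ratio of CX-5461 over control CPM for each proteasome gene (points, with counting intervals as bars) in ES-like cells and in feeders, on x axes of different range, ordered by sub-complex. Orange and blue mark genes at least 25% higher or 20% lower, grey the rest, and the dotted line is the median of all genes tested (0.36 in ES-like cells and 0.16 in feeders). Psmb9 and Psmc1 lie farthest to the right in ES-like cells, and Psmb7 is on the left of 0 in both panels.

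The rings of the 20S core differed. The 7 alpha ring genes summed to 2375 CPM in control and 2454 CPM in CX-5461 ES-like cells, a log2 ratio of 0.05, while the 7 beta ring genes went from 2524 to 3371 CPM, a log2 ratio of 0.42. Within the alpha ring only Psma2 was at least 25% higher, at 381 CPM in control and 487 CPM in CX-5461 cells (log2 0.35, 0.33 to 0.38). Psma7, with the most UMIs of the ring, stood at 518 and 480 CPM (log2 -0.11), and Psma4, the lowest by ratio, at 380.1 and 335 CPM (log2 -0.18, -0.21 to -0.15). Psma8, the testis form of an alpha subunit, was rare at 6.53 and 8.96 CPM. The alpha ring thus held members on both sides of no change, none of them far from it.

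Of the 7 beta ring genes, 5 were at least 25% higher (52.4% of all genes) and 1 was at least 20% lower (13.9%), and relative to the median gene 2 were higher (31.5%) and 1 lower (29.5%). Psmb4 (ENSMUSG00000005779.12, chromosome 3 of GRCm38, 94884093 to 94886961), a structural subunit without an active site, was the highest by ratio, at 249.9 CPM (245 to 255) in control and 427 CPM (422 to 432) in CX-5461 cells, 1.71-fold (1.67 to 1.75). Psmb1 and Psmb2, also structural subunits, followed with 397 and 638 CPM (1.61-fold, 1.58 to 1.64) and with 276 and 428 CPM (1.55-fold, 1.52 to 1.59). Psmb3, with the most UMIs of the ring, was at 531 and 674 CPM, a log2 ratio of 0.34. The structural members were therefore all higher by share of UMIs, Psmb3 only up to the level of the median gene.

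The 3 constitutive active-site genes went different ways. Psmb6, the caspase-like subunit, was at 462 CPM in control and 623 CPM in CX-5461 cells, 1.35-fold (1.33 to 1.37). Psmb5, the chymotrypsin-like subunit and the target of bortezomib, was at 356 and 403 CPM, 1.13-fold (1.11 to 1.15). Psmb7 (ENSMUSG00000026750.6, chromosome 2, 38588036 to 38644087), the trypsin-like subunit, was at 252 CPM (247 to 257) and 177 CPM (174 to 180.4), 0.703-fold (0.684 to 0.722). It was the single beta ring gene below its control level, and it was detected in 96.9% of control and 89.2% of CX-5461 ES-like cells. The 3' end of Psmb7 lies over that of Nek6 on the opposite strand, and Nek6 had 503 UMIs over all control barcodes and 1042 over all CX-5461 barcodes.

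The ratio of beta to alpha ring UMIs does not depend on how libraries are scaled. It was 1.06 (1.05 to 1.07) in control and 1.37 (1.36 to 1.38) in CX-5461 ES-like cells. Both control clusters of ES-like cells lay at 1.06 and 1.08, and the 3 CX-5461 clusters with over 200 cells at 1.36, 1.40 and 1.46. The 38 compared cells of another CX-5461 cluster, of median depth 8409 UMIs and with 8.17% mitochondrial UMIs, were nearer to control at 1.14 (1.05 to 1.23). In 4 bins of total UMIs per cell the ratio was 1.05 to 1.07 in control and 1.35 to 1.39 in CX-5461 cells. Feeders showed a smaller shift, from 1.06 (1.03 to 1.10) to 1.24 (1.20 to 1.28). Of the cells outside the comparison, 481 CX-5461 ES-like cells over the mitochondrial limit had a ratio of 1.02 (0.99 to 1.05). In 1176 shallow control cells the ratio was 0.839 (0.814 to 0.865). Their cluster held ES marker UMIs at 1.08 times the share in all kept cells, but was left unnamed under the rule for clusters of low depth. Of these 1176 cells, 111 passed both limits of the comparison and were left out because they had no name. Median depths of the CX-5461 and control cells outside the comparison were 5725 and 2393 UMIs, against 14749 and 15970 in the ES-like cells compared. The part of RNA quality in the ring ratio was not tested.

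**Figure D2:**
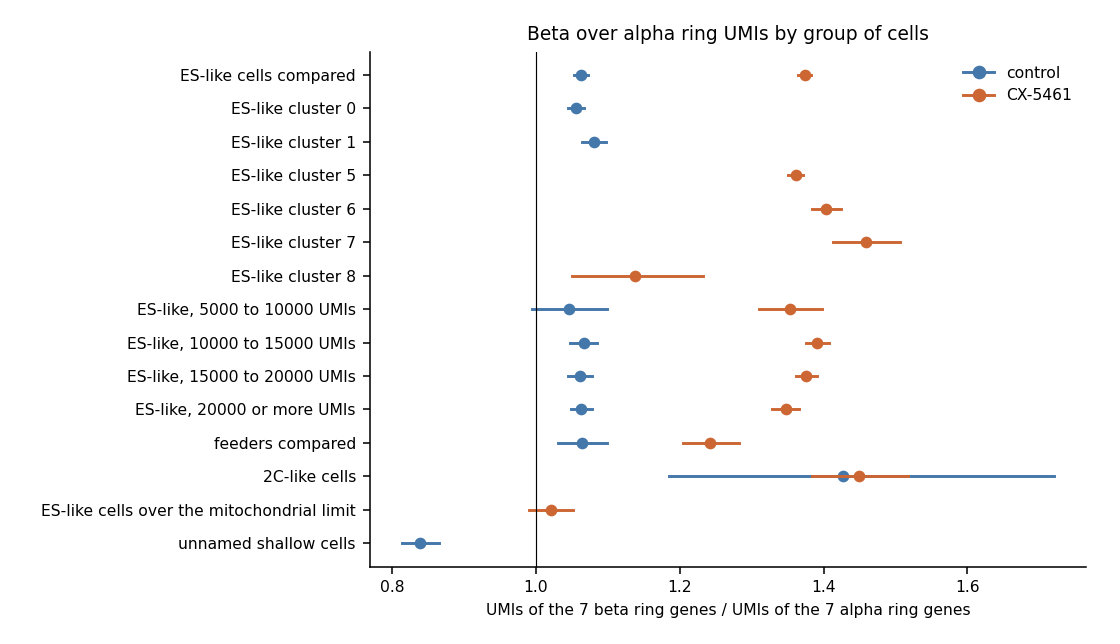
UMIs of the 7 beta ring genes over UMIs of the 7 alpha ring genes (x axis, with counting intervals as bars) by group of cells, control in blue and CX-5461 in orange. The CX-5461 depth bins and clusters 5, 6 and 7 of ES-like cells lie above 1.3 and the control bins and clusters below 1.1, while CX-5461 cluster 8 (38 cells) lies at 1.14, CX-5461 cells over the mitochondrial limit at 1.02, and 2C-like cells at 1.43 and 1.45.

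Psmb9 had the highest ratio of all proteasome genes. The gene (ENSMUSG00000096727.2, chromosome 17, 34181987 to 34187764, minus strand) encodes the inducible counterpart of Psmb6 and lies in the major histocompatibility complex, head to head with Tap1, which encodes a subunit of the transporter that carries the peptides made by the proteasome to class I molecules. The promoter window is shown because both genes moved and their windows, from 250 bases before to 50 after each start, share 275 bases. In the RefSeq sequence of GRCm38.p6, chr17:34187281-34187580, minus strand, 5′ to 3′, capitals mark a CCAAT box read on the other strand.
Psmb9: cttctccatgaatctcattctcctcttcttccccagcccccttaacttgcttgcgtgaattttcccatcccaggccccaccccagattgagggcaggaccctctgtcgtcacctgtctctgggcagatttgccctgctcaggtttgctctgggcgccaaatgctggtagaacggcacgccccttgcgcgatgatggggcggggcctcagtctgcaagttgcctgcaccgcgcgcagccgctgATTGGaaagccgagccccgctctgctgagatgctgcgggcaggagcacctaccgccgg
Psmb9 had 39 UMIs in control ES-like cells, 0.946 CPM (0.673 to 1.29), and 675 in CX-5461 ES-like cells, 11.2 CPM (10.4 to 12.1), 11.8-fold (8.57 to 16.8). Tap1 had 23 UMIs, 0.558 CPM, and 1329 UMIs, 22.1 CPM, a log2 ratio of 5.31 (4.71 to 5.97).

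The other inducible subunits did not go with Psmb9. Psmb8, the counterpart of Psmb5, had 23 UMIs in each library, 0.558 CPM (0.354 to 0.837) in control and 0.382 CPM (0.242 to 0.573) in CX-5461 ES-like cells. Psmb10, the counterpart of Psmb7, was at 25.8 CPM (24.3 to 27.4) and 20.3 CPM (19.2 to 21.5), 0.789-fold (0.726 to 0.857). Psmb11, the thymus form, had 1 and 2 UMIs, a ratio of 1.37 (0.0712 to 80.7). The whole inducible set was thus not higher: of its genes only Psmb9 was.

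Cells with a Psmb9 UMI were 38 of 2328 in control (1.63%, 1.16 to 2.23) and 591 of 3910 in CX-5461 ES-like cells (15.1%, 14.0 to 16.3), with median depths of 15970 and 14749 UMIs. After each cell was thinned to 5000 UMIs, the shares were 0.601% (0.329 to 1.01) and 5.86% (5.14 to 6.64). At most 5 Psmb9 UMIs were found in a single CX-5461 ES-like cell, so the signal was spread over many cells. Feeders held 102 Psmb9 and 356 Psmb8 UMIs in the CX-5461 library, 0.287 Psmb9 UMIs per Psmb8 UMI, whereas the ES-like cells of that library held 29.3 per Psmb8 UMI. The part of free RNA in these counts was not tested. In the 3 CX-5461 ES-like clusters with over 200 cells Psmb9 stood at 9.20, 14.4 and 23.2 CPM and Tap1 at 13.5, 32.5 and 85.6 CPM, in the same order, while Psmb10 ran in the reverse order at 23.5, 13.4 and 8.88 CPM. In thinned CX-5461 cells a Psmb9 UMI was found in 6.15% (4.09 to 8.82) of the 439 cells with a Tap1 UMI and in 5.30% (4.58 to 6.10) of the 3471 without, intervals that overlap. Of the 1104 thinned cells with a UMI of B2m, the light chain of class I molecules, 6.97% (5.54 to 8.64) held a Psmb9 UMI. Of the 2806 without, 4.78% (4.02 to 5.63) did, and here the intervals met only from 5.54% to 5.63%. Overlap of intervals does not show that shares are equal, and neither difference was tested. In the 3 clusters above, B2m stood at 70.9, 86.9 and 58.7 CPM, which is not the order of Psmb9.

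The share of inducible subunits within each pair shows how small these amounts remained. Psmb9 made up 0.204% (0.145 to 0.279) of the Psmb9 and Psmb6 UMIs in control and 1.77% (1.64 to 1.90) in CX-5461 ES-like cells, against 5.53% and 6.38% in feeders. Psmb10 made up 9.29% and 10.3% of the Psmb10 and Psmb7 UMIs in ES-like cells, and 37.0% (34.1 to 40.0) and 53.0% (49.3 to 56.7) in feeders, where Psmb7 was lower after treatment. Psmb8 made up at most 0.156% of the Psmb8 and Psmb5 UMIs in ES-like cells and 31.8% and 29.1% in feeders.

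**Figure D3:**
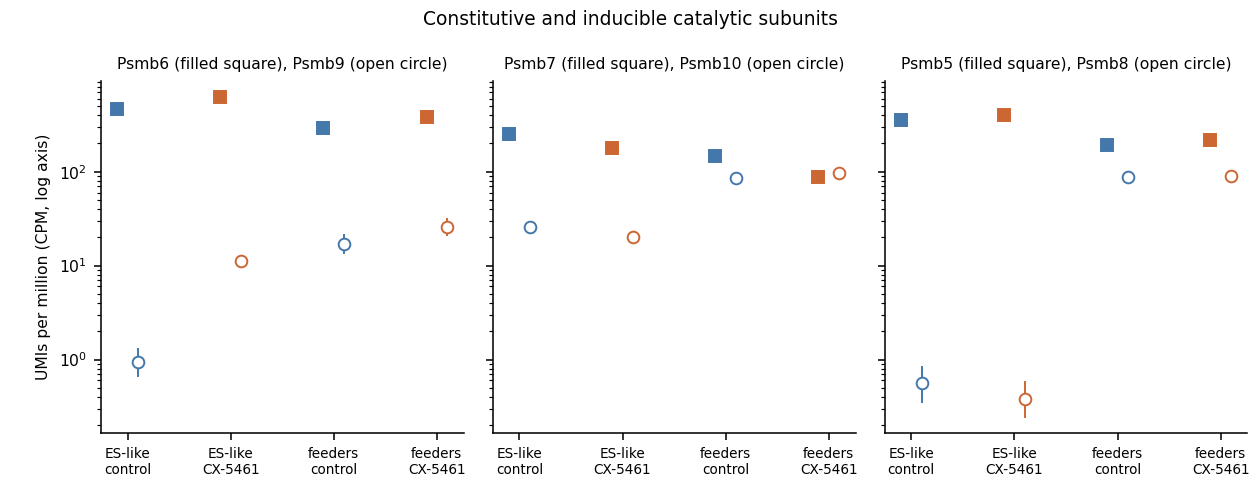
CPM on a log axis of the 3 constitutive active-site genes (filled squares) and their inducible counterparts (open circles) in ES-like cells and feeders, control in blue and CX-5461 in orange, with counting intervals as bars where they exceed the symbol. Psmb9 moves from 0.946 to 11.2 CPM in ES-like cells, whereas Psmb8 stays under 1 CPM there in both libraries.

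In the 19S base, all 6 ATPase genes were higher in share of UMIs, and Psmc1 stood apart. Psmc1 (ENSMUSG00000021178.9, chromosome 12, 100110154 to 100123405), which encodes an ATPase whose tail opens the gate of the 20S core, was at 87.4 CPM (84.6 to 90.3) in control and 216 CPM (212 to 219.6) in CX-5461 ES-like cells, 2.47-fold (2.38 to 2.56). The other 5 ATPase genes had log2 ratios of 0.08 to 0.30, below the median gene, with Psmc5, which had the most UMIs after Psmc1 in the CX-5461 cells, lowest at 179 and 190.1 CPM. Psmc1 was detected in 74.7% of control and 93.4% of CX-5461 cells. It was at 87.7 and 86.7 CPM in the control clusters and at 188, 252 and 420 CPM in the 3 CX-5461 clusters with over 200 cells. This was the order of Psmb9 and Tap1 but not of B2m, and Psmb5 and Psma7 ran in the reverse order. Over the 4 depth bins the log2 ratio of Psmc1 was 0.97 to 1.32. Psmc1 had the highest ratio of the standard subunits, and its promoter is shown beside that of Psmb4, the highest of the beta ring, which had no CCAAT box (RefSeq, GRCm38.p6, 5′ to 3′, chr12:100109952-100110251, plus strand, and chr3:94886909-94887208, minus strand, CCAAT box in capitals).
Psmc1: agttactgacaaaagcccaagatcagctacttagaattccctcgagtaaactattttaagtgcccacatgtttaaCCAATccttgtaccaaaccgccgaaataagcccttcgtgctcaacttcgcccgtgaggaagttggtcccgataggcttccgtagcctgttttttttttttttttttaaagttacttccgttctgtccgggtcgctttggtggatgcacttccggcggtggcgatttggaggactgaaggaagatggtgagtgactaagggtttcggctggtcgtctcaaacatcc
Psmb4: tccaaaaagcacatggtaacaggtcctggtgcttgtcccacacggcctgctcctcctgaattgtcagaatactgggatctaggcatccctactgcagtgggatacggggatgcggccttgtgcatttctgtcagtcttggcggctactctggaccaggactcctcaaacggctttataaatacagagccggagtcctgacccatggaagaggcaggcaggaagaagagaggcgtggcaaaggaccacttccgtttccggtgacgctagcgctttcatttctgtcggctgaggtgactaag
The 3 other base genes were the scaffold genes Psmd1 and Psmd2 and the ubiquitin receptor Psmd4. All were slightly higher in share of UMIs, by log2 ratios of 0.12 to 0.28, and all were below the median gene. Psmd4, with the most UMIs, was at 234 and 255 CPM, and Psmd2, the highest by ratio, at 99.5 and 121 CPM.

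The lid behaved unlike the base. Its 8 genes summed to 1114 CPM in control and 1094 CPM in CX-5461 ES-like cells, a log2 ratio of -0.03. By share of UMIs, 6 of them were below their control level, by log2 ratios of -0.01 to -0.17. None of these passed the lower limit used above, and the share of all genes below their control level is not given here. Relative to the median gene, the same 6 passed the lower limit (29.5% of all genes), and no base gene did. Psmd7, a scaffold of the deubiquitinase with the most UMIs and the lowest ratio of the lid, was at 269 and 239 CPM (log2 -0.17, -0.21 to -0.14). Psmd8 and Psmd12 were above their control level, Psmd8 at 134 and 169 CPM (log2 0.33, 0.29 to 0.38) and Psmd12 at 131 and 143 CPM (log2 0.13). Psmd14, the deubiquitinase itself, was at 89.7 and 82.7 CPM. The ratio of lid to base UMIs, again free of the scale, was 0.895 (0.883 to 0.906) in control and 0.714 (0.707 to 0.721) in CX-5461 cells. Psmc1 weighs on this ratio: the base summed to 1245 and 1533 CPM, of which Psmc1 held 87.4 and 216 CPM. The ratio without Psmc1 was not computed. The 3 assembly chaperones of the base were higher in share of UMIs. Psmd10, the oncoprotein gankyrin, was at 24.7 and 36.1 CPM (log2 0.55, 0.44 to 0.66). Psmd9 was at 29.8 and 41.9 CPM (log2 0.49), and Psmd5 at 28.8 and 34.6 CPM (log2 0.26). Relative to the median gene Psmd5 was lower, at -0.09.

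Activators open the 20S core in place of the 19S cap, and Psme1 and Psme3 were at least 20% lower in ES-like cells, beside Psme2b, whose counts are uncertain. Psme1 and Psme2 encode the subunits of PA28 alpha-beta, which is induced by interferon. Psme1 was at 64.7 CPM (62.3 to 67.2) in control and 49.6 CPM (47.8 to 51.4) in CX-5461 cells, 0.766-fold (0.727 to 0.807), and Psme2, with the most UMIs of the activators, at 107 and 124 CPM, 1.16-fold (1.12 to 1.20). Psme3, which encodes the nuclear activator PA28 gamma, was at 60.1 and 43.0 CPM, 0.715-fold (0.676 to 0.756). Psme4, which encodes PA200, was at 27.9 and 31.8 CPM. Psmf1, which encodes the inhibitor PI31, was at 27.2 and 33.1 CPM, a log2 ratio of 0.28.

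Psme2b had the lowest ratio of the members, at 36.7 and 21.2 CPM, 0.577-fold (0.535 to 0.622), but its counts did not behave like those of a gene of its own. Psme2b is a single-exon near copy of Psme2. A Psme2b UMI was found in 0 of 536 control cells without a Psme2 UMI, in 64.5% of 625 cells with 1 Psme2 UMI and in all 180 cells with at least 5, and in CX-5461 cells in 1 of 1007, in 23.9% of 1016 and in 77.3% of 405. Only 20 control cells and 6 CX-5461 cells held 2 or more. The variance of its counts over cells was 0.377 times the mean in control and 0.683 times in CX-5461 cells, while no other member with at least 200 UMIs was below 1.03 times. Taken as 1 gene, Psme2 and Psme2b stood at 144 and 146 CPM, 1.01-fold (0.979 to 1.05), so neither of their opposite ratios is certain.

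The 20S assembly chaperones split. Psmg1, which works in a pair with Psmg2, was at 70.9 and 86.8 CPM (log2 0.29), and Psmg2 was at 38.7 and 51.3 CPM (log2 0.41, 0.32 to 0.50). Psmg4, which pairs with Psmg3 and had the most UMIs of the 4 in control cells, was at 129 CPM (125 to 132) and 83.6 CPM (81.3 to 86.0), 0.650-fold (0.626 to 0.676), while Psmg3 was at 30.9 and 36.1 CPM. Partners of 1 chaperone pair thus had ratios on opposite sides of no change by share of UMIs. Relative to the median gene both were lower, Psmg3 at -0.13 and Psmg4 at -0.98. Psmc3ip, which is no proteasome gene, was at 31.8 and 61.1 CPM (log2 0.94, 0.85 to 1.04), and its 3' end lies over Mlx on the opposite strand.

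Over single ES-like cells, the summed share of the 31 standard genes had a higher median and a narrower spread in the CX-5461 library. The 31 standard genes took a median of 0.718% of a cell's UMIs in control ES-like cells (quartiles 0.593% and 0.862%) and 0.830% in CX-5461 ES-like cells (0.740% and 0.924%). The variance around the count that a cell's depth predicts was 8.83 times that of Poisson counts in control and 3.78 times in CX-5461 cells, at similar median counts of 114 and 123 UMIs. In cells thinned to 5000 UMIs, 20S and 19S UMIs correlated with Pearson's r of 0.445 (Spearman's rho 0.447) over 2328 control cells and 0.252 (0.233) over 3910 CX-5461 cells. These are descriptions, since cells of 1 library share their culture, library and sequencing. The 2C-like cells, a rare state that resembles the 2-cell embryo, were 101 in the CX-5461 library, and there the 31 genes took 0.820% (0.805 to 0.836) of UMIs and the beta to alpha ratio was 1.45 (1.38 to 1.52), beside 1.37 in ES-like cells. The control library held 9 such cells, in which the 31 genes took 0.629% (0.585 to 0.675) of UMIs and the ratio was 1.43 (1.18 to 1.72), beside 1.06 in control ES-like cells.

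**Figure D4:**
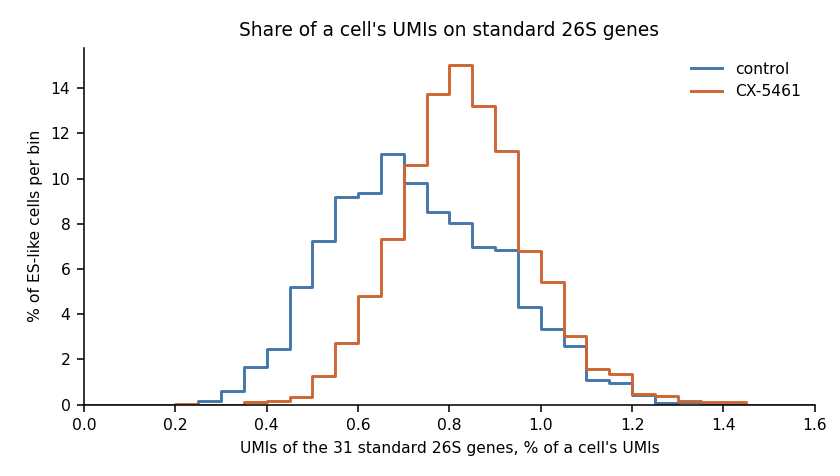
Distribution over ES-like cells of the percentage of a cell's UMIs on the 31 standard 20S and 19S genes (x axis) as percent of cells per bin (y axis), control in blue and CX-5461 in orange. The CX-5461 curve is narrower and centred at 0.830%, the control curve wider and centred at 0.718%.

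In feeders, which were exposed to CX-5461 in the same dish, proteasome genes were also higher in share of UMIs, and here nearer to all genes: the median log2 ratio was 0.21 over the 47 members with at least 50 UMIs and 0.16 over the 8435 genes tested. Of the 47, 18 were at least 25% higher (38.1% of all genes) and 4 at least 20% lower (20% of all genes). Relative to the median gene the numbers were 13 (27.6%) and 10 (28.3%). The 31 standard genes took 0.525% (0.518 to 0.532) of UMIs in control and 0.627% (0.619 to 0.635) in CX-5461 feeders. The control feeders held 7 cells with at least 5 UMIs of macrophage markers, which summed to 260.1 CPM in control and 17.5 CPM in CX-5461 feeders. All 10 of these markers were found in control feeders, led by Lyz2 with 504 UMIs against 6, while C1qa, C1qb, Ctss, Ptprc and Adgre1 were at 0 in CX-5461 feeders. Without the cells with at least 5 such UMIs the median log2 ratio was 0.23, with 18 members higher and 3 lower.

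The highest members in feeders were Psma6, Psmb1 and Psmd8. Psma6, an alpha ring subunit, was at 163 CPM (151 to 175) in control and 294 CPM (278 to 312) in CX-5461 feeders, 1.81-fold (1.64 to 1.98), beside 239 and 276 CPM in ES-like cells. Psmb1 was at 324 and 515 CPM, 1.59-fold (1.49 to 1.70), and Psmd8 at 396 and 617 CPM, 1.56-fold (1.47 to 1.66). Lowest were Psmb7 at 147 and 86.9 CPM, 0.591-fold (0.517 to 0.674), Psmd5 at 19.4 and 12.7 CPM on 87 and 50 UMIs, and Psmd11, a lid scaffold, at 129 and 87.2 CPM, 0.675-fold (0.589 to 0.773). In the beta ring, Psmb1, Psmb4, Psmb6 and Psmb2 were at least 25% higher and Psmb7 was lower, as in ES-like cells. The base ATPases were higher as well, all 6 of them, with Psmc1 at 66.8 and 99.6 CPM, 1.49-fold (1.28 to 1.74), next to Psmc2 at 1.48-fold rather than apart from it. Among the inducible subunits, Psmb9 was at 17.1 CPM (13.5 to 21.4) and 25.9 CPM (21.1 to 31.5), Psmb8 at 88.9 and 90.5 CPM, and Psmb10 at 86.4 and 98.1 CPM.

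Counting intervals lay on opposite sides of no change in ES-like cells and feeders for 3 members. The same count over all genes was not made, so 3 is not read as many or few. Psma5 had a log2 ratio of 0.06 (0.01 to 0.10) in ES-like cells and -0.24 (-0.43 to -0.06) in feeders, Psmd5 of 0.26 (0.16 to 0.37) and -0.61 (-1.14 to -0.09), and Psme1 of -0.38 (-0.46 to -0.31) and 0.28 (0.08 to 0.48). The difference itself has no replicate behind it and was not tested. Relative to the median gene of each cell type, Psma5 and Psmd5 were below it in both, while Psme1 was at -0.74 in ES-like cells and 0.12 in feeders.

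Within each library, feeders had less of most proteasome genes than ES-like cells and far more of the inducible subunits. In the control library, 33 of 49 members were at least 20% lower in feeders (43.7% of all genes) and 7 at least 25% higher (38.2%), with a median log2 ratio of feeders over ES-like cells of -0.53. In the CX-5461 library 30 were lower (47.9%) and 8 higher (34.7%), with a median of -0.51. The median over all genes was -0.12 and -0.24. Relative to it, 28 members were lower (40.4% of all genes) and 7 higher (41.1%) in the control library, and 23 lower (41.6%) and 10 higher (41.0%) in the CX-5461 library. Psmb8 had 399 UMIs in 198 control feeders and was at 88.9 CPM there against 0.558 CPM in ES-like cells, a log2 ratio of 7.32, and of 7.89 in the CX-5461 library. Psmb9 had a log2 ratio of 4.18 in control and 1.21 in CX-5461 cells, Psmb10 of 1.74 and 2.27, Psme2 of 1.31 and 1.65, and Psme1 of 0.43 and 1.10. The genes of the interferon-inducible set were thus all on the feeder side in both libraries.

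In feeders, 30 of the 31 standard genes were lower in the control library and 29 of them with CX-5461, where the median gene was lower too. At least 20% lower were 25 in the control library (43.7% of all genes) and 24 with CX-5461 (47.9%). Relative to the median gene these were 20 (40.4%) and 17 (41.6%). Psmd8 was the single standard gene at least 25% higher in feeders in both libraries. It was at 396 CPM against 134 CPM in control and 617 against 169 CPM in CX-5461 cells. Psmd12, also of the lid, was at 37.9 CPM against 131 CPM in control and 43.7 against 143 CPM in CX-5461 cells, log2 ratios of -1.79 and -1.71. Psmg1 was also low in feeders, at 19.4 against 70.9 CPM and 24.1 against 86.8 CPM. Psma8 had 4 UMIs in control and 1 UMI in CX-5461 feeders, against 269 and 540 in ES-like cells.

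**Figure D5:**
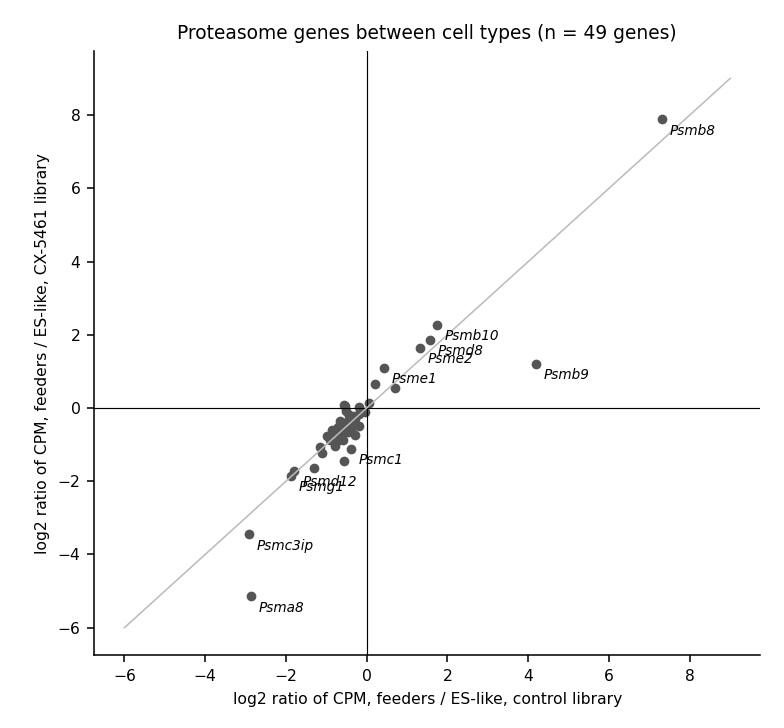
Log2 ratio of CPM in feeders over ES-like cells for 49 proteasome genes, in the control library (x axis) and the CX-5461 library (y axis), with equal values on the grey line. Psmb8 lies at the upper right, most genes lie below 0 on both axes, and Psmb9 lies under the line at 4.18 and 1.21.

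Genes that act with the proteasome were taken from 4 lists, whose counts stand beside 52.4% of all genes at least 25% higher and 13.9% at least 20% lower in ES-like cells, where the median log2 ratio of all genes was 0.36. Of 10 proteasome partners, 3 were at least 25% higher in ES-like cells and 2 at least 20% lower, with a median log2 ratio of 0.03, so fewer were higher than among all genes. Pomp, the chaperone that completes the 20S core, was at 288 and 393 CPM and the ubiquitin receptor Adrm1 at 134 and 180.2 CPM, whereas Sem1, a small lid subunit, was at 549.7 and 406 CPM (log2 -0.44). Of 14 shuttle factors and ubiquitin genes, 3 were higher, again a smaller share than of all genes, and 2 lower, with a median of 0.20. The polyubiquitin gene Ubb was at 406 and 1167 CPM (log2 1.52), and Rad23b, which carries ubiquitinated proteins to the proteasome, was at 92.0 and 45.6 CPM (log2 -1.01). In feeders Ubb was at 636 and 1438 CPM (log2 1.18).

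Of 10 regulators of proteasome genes with enough UMIs, 5 were higher and 1 lower in ES-like cells, with a median log2 ratio of 0.29, shares near those of all genes (52.4% and 13.9%) and a median below that of all genes. Nfe2l1, which encodes the factor that raises proteasome genes when the proteasome is inhibited, was at 22.0 and 18.2 CPM (log2 -0.27), and Nfe2l2, its oxidative-stress relative, at 31.1 and 47.9 CPM (log2 0.63). Syvn1 and Sel1l, which encode the ubiquitin ligase of the endoplasmic reticulum that acts on both, had log2 ratios of 0.75 and 0.73. Nfyc, a subunit of the factor that binds CCAAT boxes, was at 59.9 and 37.8 CPM (log2 -0.66).

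Of the 9 antigen processing and interferon genes with at least 200 UMIs in ES-like cells, 6 were at least 25% higher (52.4% of all genes) and 3 at least 20% lower (13.9%), with a median log2 ratio of 0.43. Besides Tap1, B2m was at 14.7 and 74.6 CPM (log2 2.34), H2-D1 at 10.4 and 27.3 CPM (log2 1.39) and H2-K1 at 4.25 and 8.83 CPM (log2 1.06). Nlrc5, the activator of class I genes, had 1 UMI in control and 160 in CX-5461 ES-like cells, below the minimum for the counts above, a log2 ratio of 6.77 (4.28 to 12.09). The interferon-stimulated genes Bst2 and Isg15 were at 224 and 86.3 CPM (log2 -1.38) and at 36.4 and 20.1 CPM (log2 -0.86), Tapbp was at 16.6 and 7.65 CPM (log2 -1.12), and Ifit3 had 9 and 8 UMIs. In feeders B2m was at 1166 and 3227 CPM (log2 1.47), and 8 of 12 genes of the list were at least 25% higher (38.1% of all genes).

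Promoters were searched on both strands for short motifs in the RefSeq windows of GRCm38.p6, which held 41 of the 49 proteasome genes and not Psmb1, Psmb2 or Psmb7. The core of the antioxidant response element, TGACNNNGC, which Nfe2l1 and Nfe2l2 bind, was in 6 of 41 members (14.6%) and in 14.0% of 27025 genes. The CCAAT box was in 14 (34.1%, against 41.1% of genes), the E box CACGTG in 4 (9.76%, against 8.09%) and the GC box GGGCGG in 23 (56.1%, against 38.2%). A p53 full site was in 0 members and in 0.074% of genes, and a half-length p53 site in 2 (4.88%, against 9.55%). Psmb9 held a CCAAT box and a GC box, Psmc1 a CCAAT box, and Psmb4 none of these. Psmb9 and Psmc1 thus shared the CCAAT box, which was in 41.1% of genes, and no searched motif was in all of these promoters.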

How the data were processed

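Single-cell libraries were made with the 10x Genomics 3' kit (version 2 chemistry) and sequenced on an Illumina HiSeq X instrument. The authors made gene by barcode tables with a published droplet pipeline and deposited raw UMI counts, without normalization or cell filters, together with summed counts and counts marked as shared between genes; the labels name the build mm10 and Seurat 2.3.4 for later steps. The methods name Bowtie as the pipeline's aligner, exchanged for repeats alone; its version, the handling of near copies and strand use in gene counts are not given in the sources used here. Of 54146 identifiers, 54079 matched the GENCODE annotation of GRCm38 when versions were ignored.

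Kept, as in the study, were cells of 500 UMIs or more whose mitochondrial share did not exceed 0.2, 3767 of 3838 control and 4697 of 4922 CX-5461 barcodes, more than the study plots. After proteasome genes were removed, all kept cells were clustered jointly in scanpy 1.11.5 (2000 variable genes, 16 principal components, 15 neighbours, Leiden resolution 0.5), and clusters were named from marker lists. No doublet caller was run. Barcodes were given as running numbers, so barcodes shared by libraries could not be counted. Compared were ES-like cells and feeders of 5000 UMIs or more whose mitochondrial share did not exceed 0.1. UMIs were summed per gene, and genes with 200 or more UMIs in ES-like cells, or 50 or more in feeders or in feeders and ES-like cells, entered the counts of genes at least 25% higher or 20% lower. Intervals are Poisson, conditional binomial or Clopper-Pearson at 95% (scipy 1.17.1). With 1 library per condition no p-value was computed. The functions were tested on simulated data. Alternatives were the TMM factor, other totals, cell filters, thinning, per-cell means and marker gates.

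Named are the catalytic and inducible beta subunits, Psme1, Psme2, the member with the most UMIs, the highest and the lowest ratio of each sub-complex, the 3 highest and 3 lowest in feeders, and those with opposite intervals. Psmd9, Psmd12, Psmd14 and others beyond this rule were named after their values were seen. The members and lists were chosen with earlier results of these data known. Paaf1, on the list of partners, was not found among the identifiers. The values of 1 listed gene that is no member are not reported here.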

Additional observations from a re-analysis of the deposited data

Results flagged for a closer look

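Counting intervals of the CX-5461 over control ratio in ES-like cells and feeders lay on opposite sides of no change for 3 members. The same count over all genes was not made. The log2 ratio in feeders minus that in ES-like cells was -0.30 for Psma5, -0.87 for Psmd5 and 0.66 for Psme1. The difference was not tested, since each condition is 1 library. Psmd5 rests on 87 control and 50 CX-5461 UMIs in feeders.

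Among the pseudogenes that the symbol rule left out, Psmb7-ps2 had 9 UMIs in the CX-5461 table and 0 in the control table, beside 12070 and 11881 for Psmb7 itself.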

How the results depend on the processing

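Limits are those of 1 library per condition: intervals cover counting error, and culture, library and treatment cannot be told apart. Feeder values rest on 163 and 198 cells, and members with under 200 UMIs there have wide intervals. No paired analysis was possible because barcodes carry no sample of origin, and for the same reason leaving out each sample and a count test per sample were not run.

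With the TMM factor in place of totals, every log2 ratio in ES-like cells was lower by 0.40: the median of members became -0.20, 4 were at least 25% higher and 16 at least 20% lower, and Psma2 (-0.046), Psmd8 (-0.067) and Psmb3 (-0.056) changed sign. In feeders the median became 0.059 and 10 members were lower. The shares of all genes past these limits with the TMM factor were not counted. Relative to the median gene they were 31.5% upward and 29.5% downward in ES-like cells, and 27.6% and 28.3% in feeders. These counts of members are therefore not read as a fall of proteasome genes. Feeders over ES-like cells had medians of -0.81 (control) and -0.62 (CX-5461) with the TMM factor, and of -0.49 and -0.48 with the mean over cells of CPM. In ES-like cells the median was 0.15 with the mean over cells of CPM, 0.18 with cells chosen by marker UMIs, 0.13 with a total without ribosomal protein and mitochondrial genes, 0.14 with cells thinned to 5000 UMIs, 0.20 without cells with a 2C UMI and 0.15 with depth bins weighted equally, the last chosen after seeing the data. In feeders it was 0.25 with cells chosen by marker UMIs. Of 14 members higher in ES-like cells, 4 stayed at least 25% higher under all 9 alternatives (Psmb4, Psmb9, Psmc1 and Psmc3ip), and of 6 lower, 5 did; in feeders these were 13 of 18 and 3 of 4 under 6 alternatives. The beta to alpha ratio of CX-5461 over control was 1.27 to 1.30 in ES-like cells and 1.17 in feeders under every alternative run.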
